A study of Mus musculus with 6 samples.

Results

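Expression of 10 genes of the epithelial-mesenchymal transition (EMT), the shift by which epithelial cells loosen their junctions and take on traits of motile cells, was compared in mouse lung tumors. The set held 6 transcription factors (Snai1, Snai2, Zeb1, Zeb2, Twist1 and Twist2), the cadherins Cdh1 and Cdh2, the intermediate filament gene Vim and the adhesion molecule gene Epcam. Members were the probes whose gene name in the scanner files equals one of these symbols. All 10 were on the array, among 36870 gene names, and 8 of them were bright enough to be among the 20475 genes tested.

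All mice were labelled C57BL/6J and carried the same alleles, Ror1f/f, CAG-CreER and SPC-hEGFRdel746-750. Ror1f/f is a floxed Ror1 gene, CAG-CreER a Cre recombinase that tamoxifen activates, driven by a promoter active in most cell types, and SPC-hEGFRdel746-750 a mutant human EGFR driven by the surfactant protein C promoter of alveolar type 2 cells. They received tamoxifen or corn oil from 16 to 20 weeks of age, and lung tumor RNA was taken at 20 weeks. Each of the 3 samples labelled tamoxifen shared 2 arrays, 1 for each dye orientation, with the equally numbered oil sample, and these 2 samples are called a couple. No group received tamoxifen without the floxed gene, so effects of the drug and of recombination cannot be told apart. Whether the numbers stand for separate animals is not in the labels, so p-values measure the spread between these samples. Couples differed by more than their dye-swapped arrays for 66.3% of tested genes (limma F-test, adjusted p under 0.05). The spread is thus not hybridisation noise alone, but whether it is a spread between animals is unknown. The Ror1 probe read 9.34, 9.30 and 9.17 (log2 signal) in the tamoxifen samples of couples 1, 2 and 3 and 8.76, 8.86 and 8.99 in the oil samples. That is a log2 ratio of 0.40 ± 0.21 (SD, n = 3 couples), against the direction of a deletion, and its limma p adjusted over all probes tested was 0.695. The labels do not name the floxed exon, so this probe checks neither the deletion nor the labels, and "tamoxifen" below means samples labelled so.

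Epithelial cells are held together by E-cadherin, the product of Cdh1, whose tail binds catenins that link it to actin. Snail, Slug and the Zeb proteins (products of Snai1, Snai2, Zeb1 and Zeb2) are zinc finger factors that bind E-box sequences and repress Cdh1 and other epithelial genes, and the Twist proteins are helix-loop-helix factors that act in the same programme. N-cadherin (Cdh2) and vimentin (Vim) are typical of mesenchymal cells. Vimentin and Zeb2 are also made by macrophages, fibroblasts and endothelial cells, so in whole tumors their signal comes from several cell types.

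The letters that these repressors are known to bind, CAGGTG or its reverse complement CACCTG, were looked for in the 250 bases before each RefSeq gene start (GRCm38.p6) on either strand. The motif is 1 sequence read in 2 directions, so hits on the strands were not counted apart. Windows of 6 members were examined, and 2 of the 6, Epcam and Snai1, held the motif. Cdh1, Cdh2, Snai2 and Zeb1 were not examined. It was in 17.3% of 32536 such windows of all genes, and 2.07% held it at least 2 times. These 2 windows are shown because they hold the site, Snai1 being one of the repressors and Epcam an epithelial gene. The letters of the motif are in capitals, and the plus strand is given 5′ to 3′.
Epcam, chr17:87635729-87635978: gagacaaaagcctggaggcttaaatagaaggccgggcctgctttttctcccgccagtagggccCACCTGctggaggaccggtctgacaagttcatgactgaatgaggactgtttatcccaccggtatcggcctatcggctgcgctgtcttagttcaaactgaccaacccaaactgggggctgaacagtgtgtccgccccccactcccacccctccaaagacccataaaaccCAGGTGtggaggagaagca
Snai1, chr2:167537945-167538194: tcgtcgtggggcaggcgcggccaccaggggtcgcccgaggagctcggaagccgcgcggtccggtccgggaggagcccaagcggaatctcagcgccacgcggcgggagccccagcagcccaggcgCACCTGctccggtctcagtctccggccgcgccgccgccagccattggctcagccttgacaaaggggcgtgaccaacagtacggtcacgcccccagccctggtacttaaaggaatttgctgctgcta
The sites begin 187 and 19 bases before the start of Epcam and 126 bases before that of Snai1. A match describes the letters only, and binding was not measured here.

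None of the 8 tested members passed: 0 of 8 had an adjusted p under 0.05 in limma, and neither did any other gene (0% of 20475). Their adjusted p ran from 0.69 to 0.91. At an unadjusted p under 0.05 there were 2 of 8 members, Cdh1 and Epcam, beside 7.01% of all tested genes. This count depends on the processing. With the scanner software's own normalization, limma's unadjusted p was 0.0745 for Cdh1 and 0.0722 for Epcam. In 5 of 8 members, Snai1, Zeb2, Cdh1, Epcam and Cdh2, the 3 couples had the same sign, beside 30.2% of all tested genes. Epcam alone had 1 sign on all 6 arrays, as 13.3% of tested genes did. The signals of the 6 samples did not overlap between the groups for 1 member, Cdh1, as for 12.5% of tested genes. These shares rest on 8 genes, and no test was made of the set as a whole.

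**Figure D1:**
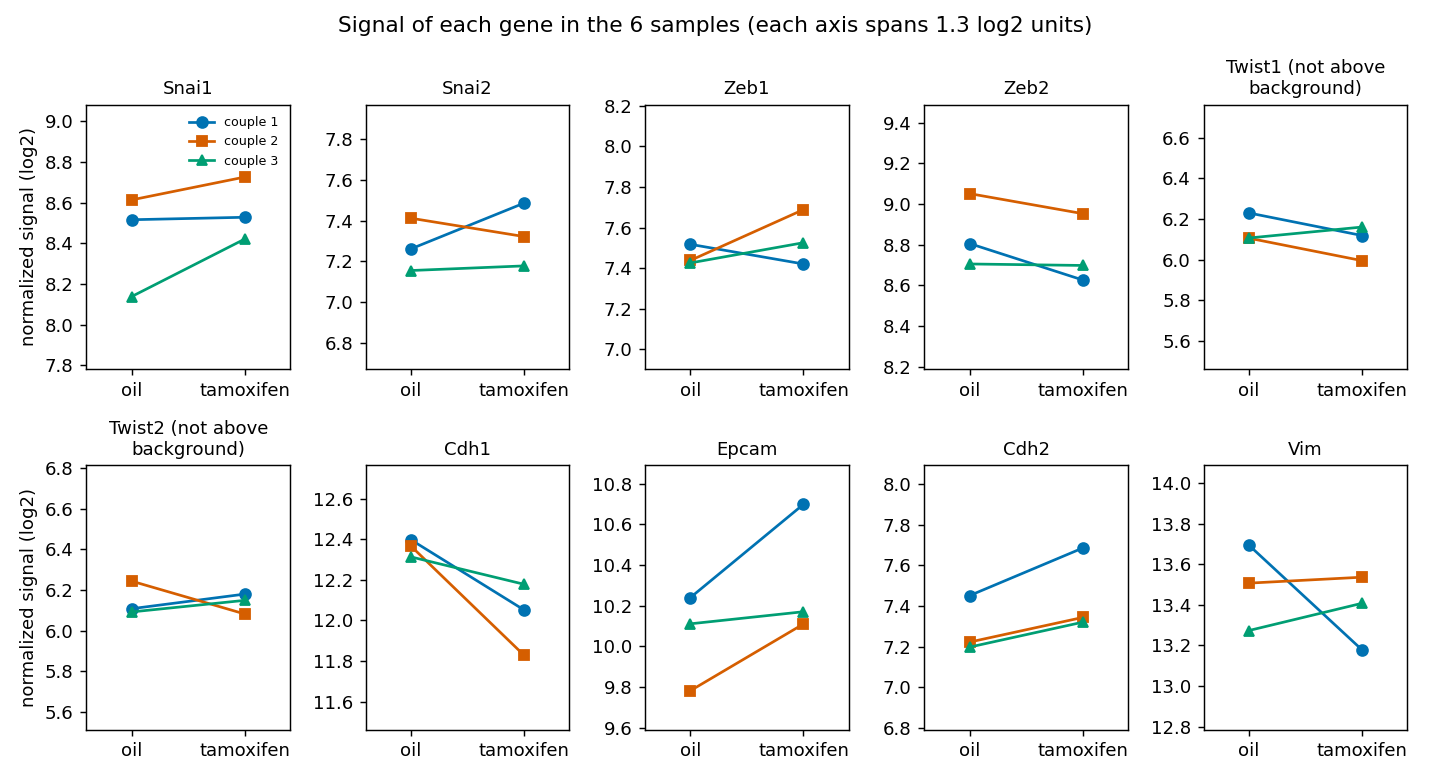
Normalized log2 signal (y axis, 1.3 units in every panel) of each gene in the 3 oil and 3 tamoxifen samples, with a line for each couple. Cdh1 goes down and Epcam and Cdh2 go up along all 3 lines, while the Vim lines cross, with couple 1 going down from 13.69 to 13.18.

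Cdh1 was the member with the lowest ratio. Its probe, on chromosome 8 from 109193812 to 109193871 (mm9, NM_009864), was well above background in all 12 readings. Its log2 signal was 12.05, 11.83 and 12.18 in the tamoxifen samples and 12.40, 12.37 and 12.31 in the oil samples of couples 1, 2 and 3. Every tamoxifen sample lay below every oil sample, and the oil samples lay closer together than the tamoxifen samples. The couples had log2 ratios of -0.35, -0.54 and -0.13, a mean of -0.34 ± 0.20 (SD, n = 3 couples), which is 1.27-fold dimmer with tamoxifen. Limma gave an unadjusted p of 0.027, an adjusted p of 0.69 and a 95% interval of -0.62 to -0.06 before any adjustment. The arrays with tamoxifen in Cy5 read -0.47, -0.73 and -0.34, and those with tamoxifen in Cy3 read -0.22, -0.34 and 0.07. The Cy5 array was lower in each couple, by 0.35 on average, and this dye difference cancels in the couple mean. The mean was -0.51 from the arrays with tamoxifen in Cy5 alone and -0.16 from the others.

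Epcam stood on the other side of 0. Epcam is a homophilic adhesion molecule of simple epithelia and, like E-cadherin, a usual sign of epithelial identity. Its 60-base probe (NM_008532) matches 829 bases of chromosome 17 from 88048972 to 88049800 (mm9), so it bridges an intron and reads spliced RNA. The probe is shown for that reason.
Epcam probe: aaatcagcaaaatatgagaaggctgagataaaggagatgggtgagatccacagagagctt
Its log2 signal was 10.70, 10.11 and 10.17 in the tamoxifen samples and 10.24, 9.78 and 10.11 in the oil samples of couples 1, 2 and 3. Each tamoxifen sample lay above the oil sample it was hybridised with, yet the groups overlapped because the oil sample of couple 1 was brighter than the tamoxifen samples of couples 2 and 3. The couples read 0.46, 0.33 and 0.06, a mean of 0.28 ± 0.20 (SD, n = 3 couples) or 1.22-fold brighter with tamoxifen. The unadjusted p in limma was 0.0496, the adjusted p 0.69 and the 95% interval 0.0007 to 0.56. The dye orientations lay close together. Couples 1, 2 and 3 read 0.47, 0.30 and 0.11 when tamoxifen was the Cy5 channel, and 0.44, 0.36 and 0.01 when it was the Cy3 channel. Epcam minus Cdh1, both epithelial genes, was 0.80, 0.87 and 0.19 in couples 1, 2 and 3 on the scale of log2 ratios. These differences are given without a test, since the genes were set side by side after their values were known.

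**Figure D2:**
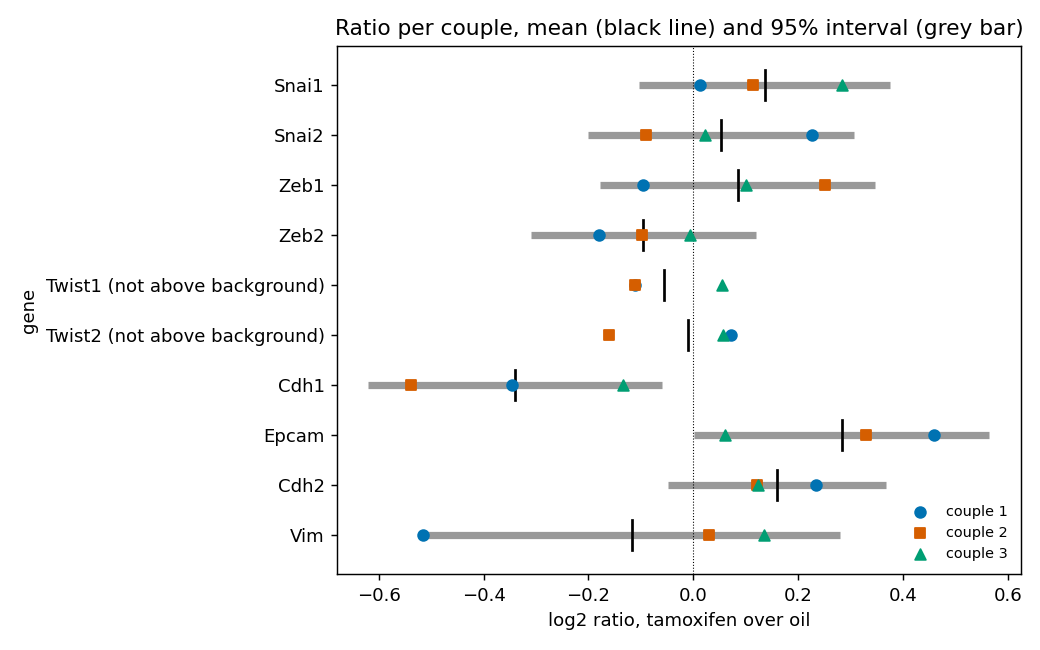
Log2 ratio of tamoxifen over oil (x axis) of each gene, with the 3 couples as symbols, their mean as a black line and limma's unadjusted 95% interval as a grey bar. The interval lies below 0 for Cdh1 (-0.62 to -0.06), barely above 0 for Epcam (0.0007 to 0.56) and spans 0 for the other 6 tested genes, and Twist1 and Twist2 have no interval.

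Cdh2 had the steadiest ratio of the 8 over the couples. Its brightest probe (NM_007664) read 7.69, 7.34 and 7.32 in the tamoxifen samples and 7.45, 7.22 and 7.20 in the oil samples of couples 1, 2 and 3. Couple 1 was the brightest in both groups, so the groups overlapped although each tamoxifen sample lay above its oil partner. The couple ratios were 0.23, 0.12 and 0.12, a mean of 0.16 ± 0.06 (SD, n = 3 couples), with a 95% interval of -0.05 to 0.37 and an adjusted p of 0.70 in limma. The orientations differed: tamoxifen in Cy5 gave 0.47, 0.27 and 0.18, and tamoxifen in Cy3 gave 0.00, -0.03 and 0.07. The mean was 0.31 from the arrays with tamoxifen in Cy5 alone and 0.01 from the others. A dye difference enters these with opposite signs, so neither orientation alone gives the ratio. With the scanner software's own normalization the mean was 0.32 (adjusted p = 0.74). A dimmer Cdh2 probe, did not reach the scanner's limit for signal well above background on any array. Cdh2 minus Cdh1 was 0.58, 0.66 and 0.26 in couples 1, 2 and 3, given as values for genes chosen after they were seen.

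Vim was the member whose couples went furthest apart. Its probe, on chromosome 2 from 13504232 to 13504291 (mm9, NM_011701), read 13.18, 13.54 and 13.41 in the tamoxifen samples and 13.69, 13.51 and 13.27 in the oil samples of couples 1, 2 and 3. The oil sample of couple 1 was the brightest and its tamoxifen partner the dimmest of the 6. The couple ratios were -0.52, 0.03 and 0.13, a mean of -0.12 ± 0.35 (SD, n = 3 couples; limma, adjusted p = 0.87), and without couple 1 the mean was 0.08. In couple 1 both arrays were below 0, at -0.65 and -0.38. In couples 2 and 3 the sign followed the dye, with -0.15 and -0.03 for tamoxifen in Cy5 and 0.21 and 0.30 for tamoxifen in Cy3. Macrophage and leukocyte markers differed between the couples too. The median ratio of 13 alveolar macrophage markers was -1.10, 0.66 and -0.36 in couples 1, 2 and 3, and that of 9 leukocyte and monocyte markers was -0.37, -0.14 and -0.10. Their summed linear signals were 75818 to 282570 in the tamoxifen and 129434 to 221354 in the oil samples for macrophages, and 163277 to 232665 against 259603 to 314997 for leukocytes. The leukocyte sums did not overlap between the groups, as for 12.5% of single tested genes. They are weighted toward the brightest markers, such as Lyz2 at 16.72 (tamoxifen) and 17.43 (oil) in mean log2 signal. All 9 ratios were below 0, with Lyz2 at -0.71 and Ptprc, Csf1r and Ccr2 at -0.15, -0.04 and -0.02. These genes were named after their values were seen. All macrophage and leukocyte markers were well above background in all 12 readings except Msr1, which was in 5 of 6 tamoxifen readings. Median ratios in couples 1, 2 and 3 were -0.16, 0.09 and 0.19 for 9 endothelial markers. For 9 fibroblast markers they were -0.12, -0.25 and -0.19. The sex-linked gene Xist had ratios of -2.13, 0.09 and 0.10 over the couples, and Ddx3y 1.10, 0.00 and 0.33. Both were dim: of 6 readings per group, Xist passed the background limit in 3 (tamoxifen) and 4 (oil) and Ddx3y in 4 and 2. Each was tested only through the group where it was brighter, so these ratios are rough. The Y-linked Eif2s3y, Uty and Kdm5d were named after their values were seen. Eif2s3y read 3.71, 0.14 and 0.63 and Uty 1.20, -0.08 and 0.79, each also past the limit in 4 (tamoxifen) and 2 (oil) readings. Kdm5d, well above background in all 12 readings, was at -0.08, 0.03 and -0.12. In couple 1, then, Xist was lower and Ddx3y, Eif2s3y and Uty were higher in the tamoxifen sample than in the oil sample. The part of these markers and sex-linked genes in the Vim ratio was not tested. In bulk tumor RNA, fewer cells of a type and less RNA per cell cannot be told apart.

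**Figure D3:**
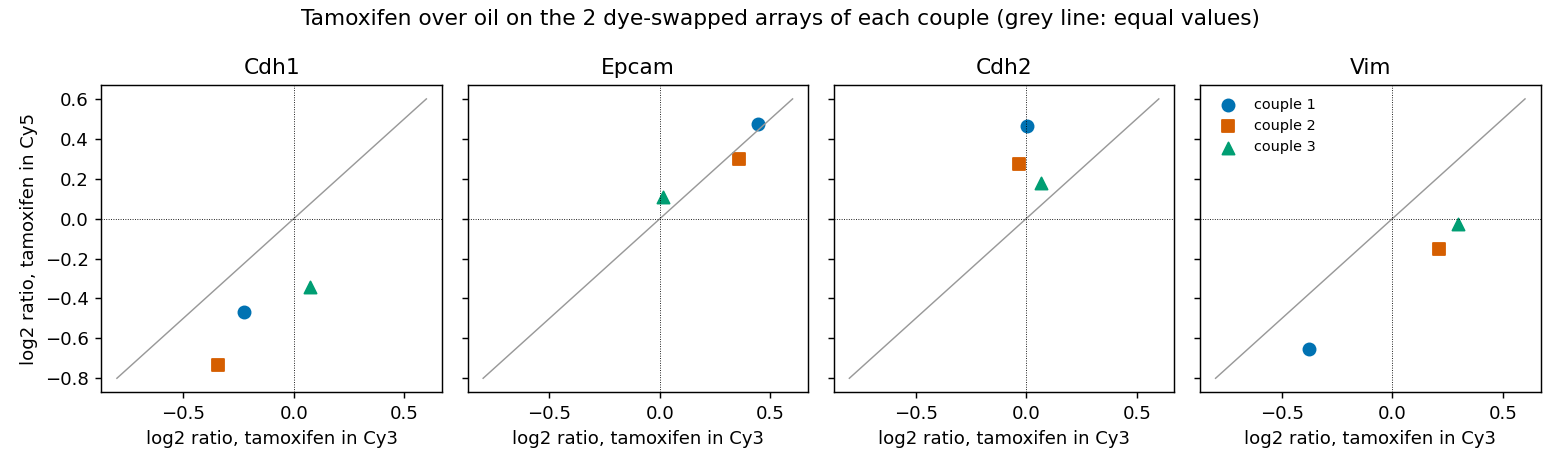
Log2 ratio of tamoxifen over oil on the array with tamoxifen in Cy3 (x axis) and in Cy5 (y axis), with a symbol for each couple. Epcam lies close to the grey line of equal values, Cdh1 and Vim lie below it in all 3 couples (by 0.35 and 0.32 on average) and Cdh2 lies above it (by 0.30).

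Snail, the product of Snai1, and Slug, the product of Snai2, are close relatives. Snai1 (chromosome 2 from 167368073 to 167368132, mm9, NM_011427) had log2 signals of 8.53, 8.73 and 8.42 in the tamoxifen samples and 8.52, 8.61 and 8.14 in the oil samples of couples 1, 2 and 3. Its ratio was above 0 in every couple, at 0.01, 0.11 and 0.28, but the groups overlapped, since couple 2 was the brightest in both and couple 3 the dimmest. The mean was 0.14 ± 0.14 (SD, n = 3 couples), with a 95% interval of -0.10 to 0.38 and an adjusted p of 0.76 in limma. Without couple 3 it was 0.06. Snai2 (chromosome 16 from 14709361 to 14709420, mm9, NM_011415) read 7.49, 7.32 and 7.18 in the tamoxifen samples and 7.26, 7.41 and 7.15 in the oil samples. Its couples disagreed in sign, at 0.23, -0.09 and 0.02, and its mean was 0.05 ± 0.16 (adjusted p = 0.91). Without couple 1 the Snai2 mean was -0.03.

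The Zeb genes encode large repressors with zinc fingers at both ends, and each had several probes. Zeb1 had 4 probes, of which 3 passed the filter on dim probes. The brightest (NM_011546) read 7.42, 7.69 and 7.53 in the tamoxifen samples and 7.52, 7.44 and 7.43 in the oil samples of couples 1, 2 and 3. The couples had ratios of -0.10, 0.25 and 0.10, a mean of 0.08 ± 0.17 (SD, n = 3 couples; limma, adjusted p = 0.86). The other Zeb1 probes that passed averaged 0.03 and 0.01. The 3 probes shared no full order of the couples, though couple 2 was above 0 and above couple 1 on each. Leaving out 1 couple put the mean of the brightest probe at 0.00 (without couple 2) to 0.17 (without couple 1).

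Zeb2 had 7 probes, of which 5 passed the filter, 1 of them through the oil group alone, where it was brighter (5 of 6 readings well above background, but 2 of 6 with tamoxifen). Its brightest probe lay on chromosome 2 from 44844068 to 44844127 (mm9, NM_015753). It read 8.63, 8.95 and 8.70 in the tamoxifen samples and 8.81, 9.05 and 8.71 in the oil samples of couples 1, 2 and 3. Each tamoxifen sample was at or below its oil partner, and couple 2 was the brightest in both groups. The couple ratios were -0.18, -0.10 and -0.01, a mean of -0.10 ± 0.09 (SD, n = 3 couples), with a 95% interval of -0.31 to 0.12 and an adjusted p of 0.80 in limma. The 3 probes well above background in at least 5 of 6 readings of both groups had means of -0.10, -0.12 and -0.10, and couple 1 was the lowest couple on each. These probes read the same RNA samples and are not replicates. As for Vim, couple 1 is where the median ratios of macrophage, leukocyte and monocyte, and endothelial markers were lowest, but not that of fibroblast markers. Lymphocyte markers went the other way. Median ratios in couples 1, 2 and 3 were 0.17, 0.11 and 0.02 for T and NK cells and 0.19, 0.05 and 0.05 for B cells. The part of these markers was not tested. Leaving out 1 couple gave -0.14 to -0.05 for the brightest probe. It gave -0.23 from the arrays with tamoxifen in Cy5 and 0.04 from the others, so its sign depended on the dye orientation.

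**Figure D4:**
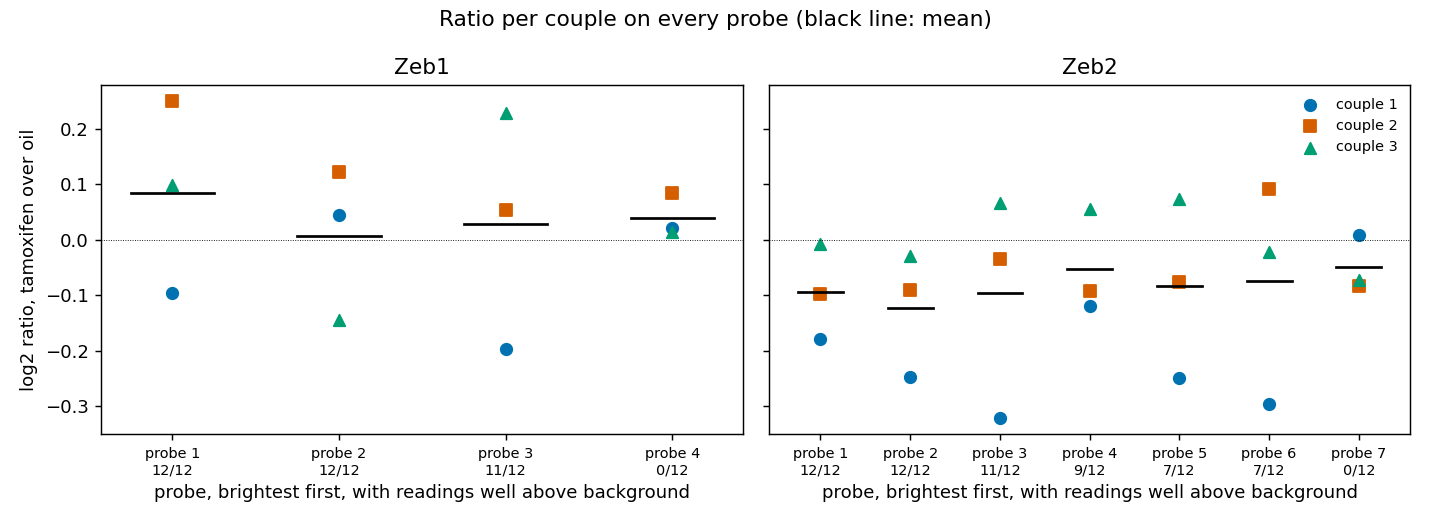
Log2 ratio of tamoxifen over oil (y axis) on every Zeb1 and Zeb2 probe, brightest first, with the couples as symbols, the mean as a black line and the number of 12 readings well above background under each probe. The 3 brightest Zeb2 probes have means of -0.12 to -0.10 with couple 1 lowest, and the 3 Zeb1 probes that passed the filter have means of 0.01 to 0.08 with no shared order.

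Twist1 and Twist2 encode basic helix-loop-helix factors of mesoderm and mesenchyme. Neither was well above background in any of the 6 tamoxifen or 6 oil readings, so neither was tested and no fold is given. Their signals ran from 5.99 to 6.23 (Twist1) and from 6.08 to 6.24 (Twist2). Each gene has 1 probe, on chromosome 12 from 34644411 to 34644470 and on chromosome 1 from 93744519 to 93744577 (mm9), so a transcript that the probe does not cover would be missed.

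The couples were also compared with each other, against the spread of their dye-swapped arrays. That spread is technical, so the test asks only whether samples differ by more than hybridisation noise. In limma's F-test over the 6 arrays, with the dye as a term, 6 of 8 members had an adjusted p under 0.05, beside 66.3% of all tested genes. The spread between couples was greatest for Vim (a range of 0.65 log2 units, F-test adjusted p = 4.4e-04). It was 0.40 for both Epcam (0.0045) and Cdh1 (0.0061), 0.35 for Zeb1 (0.0065), 0.32 for Snai2 (0.023) and 0.27 for Snai1 (0.031). Zeb2 (range 0.17, adjusted p = 0.21) and Cdh2 (0.11, 0.44) did not pass. A share of 6 of 8 is near the background and is no result about these genes. With median centring in place of loess, Snai1 and Snai2 no longer passed this test.

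Genes around the members were taken from 5 lists, and in each 0 members passed limma over all genes. Of 27 genes of the epithelial programme, 19 were below 0, beside 10492 of all 20475 tested genes. In limma 4 of the 27 had an unadjusted p under 0.05, beside 7.01% of all tested genes. The list median was -0.09, beside -0.004 over all tested genes, and without couple 2 it was 0.02. Dsp, the desmosomal linker desmoplakin, was at -0.26 ± 0.04 and Krt8, a keratin of simple epithelia, at -0.56 ± 0.51 (SD, n = 3 couples). St14, the membrane protease matriptase, was at 0.25 ± 0.10 and Ap1m2, an epithelial sorting adaptor, at 0.24 ± 0.10. Krt8 ranked its couples as Cdh1 did, at -0.53, -1.07 and -0.06, and so did its partner Krt18 at -0.47, -1.08 and -0.01, a likeness singled out after their values were seen. Without couple 2, Krt8 was at -0.30. Alveolar type 2 markers, from the cell type that the EGFR transgene targets, had a median of -0.24 with 9 of 10 below 0. Their summed linear signal was 596385 to 605167 in the tamoxifen samples and 718766 to 746481 in the oil samples, without overlap. Of single tested genes, 12.5% had groups that did not overlap. The sum is weighted toward the brightest markers, such as Sftpc at 17.63 (tamoxifen) and 17.82 (oil) in mean log2 signal. Abca3, Lpcat1 and Etv5 had ratios of -0.04, -0.08 and 0.11, while Sftpb, Sftpa1, Sftpd and Slc34a2 had -0.62, -0.30, -0.38 and -0.22. Like Sftpc, these genes were named after their values were seen. In limma 4 of the 10 had an unadjusted p under 0.05, all below 0, beside 7.01% of all tested genes, and 0 passed after adjustment. Of 6 pan-epithelial markers, which include Cdh1 and Epcam, 5 were below 0, with a median of -0.27, and only Epcam was above. The part of cell types in the Cdh1 ratio was not tested.

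The catenins and junction partners that E-cadherin works with lay near 0. Of 10 tested, 6 were below 0, the median was -0.02 and 0 had an unadjusted p under 0.05. Ctnnb1, β-catenin, was at 0.10 ± 0.22 and the nectin genes Nectin3, Nectin2 and Nectin1, which encode adhesion molecules of adherens junctions, at 0.14 ± 0.49, -0.26 ± 0.21 and -0.10 ± 0.17 (SD, n = 3 couples). Without couple 3, Nectin3 was at -0.14, without couple 2 Nectin1 was at -0.006, and Ctnnb1 was at -0.11 from the arrays with tamoxifen in Cy3. The 9 other cadherins tested, of 12 listed, had 5 below 0 and a median of -0.02. Cdh11, a cadherin of mesenchymal cells, was at -0.26 ± 0.25 (-0.14 without couple 1) and Cdh4 at -0.08 ± 0.17 (0.01 without couple 2). Cdh5, the endothelial cadherin, was at 0.10 ± 0.25 (-0.01 without couple 3), and 0 of the 9 had an unadjusted p under 0.05. Cdh6 was well above background in 5 of 6 tamoxifen but 2 of 6 oil readings, so it was tested only through the group where it was brighter. Its ratio of 0.12 ± 0.07 is imprecise, and the scanner software's normalization gave 0.48. Cdh16, named after its values were seen, spanned the widest range of them, at -1.55, -1.18 and 1.38 in couples 1, 2 and 3.

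Of 21 tested genes of the mesenchymal programme, 18 were below 0, beside 10492 of all 20475 tested genes. The list median was -0.10, with -0.25, -0.07 and 0.08 in couples 1, 2 and 3, and without couple 1 it was 0.04. Lox, which crosslinks collagen, was at -0.63 ± 0.03 and Mmp2, a matrix metalloproteinase, at -0.47 ± 0.19 (SD, n = 3 couples; limma, adjusted p = 0.67 and 0.69). These are values of the brightest probe, and the mean of all Lox probes that passed the filter was -0.49. On the other side Pdgfrb, a growth factor receptor of pericytes and fibroblasts, was at 0.24 ± 0.13 and Postn, a matrix protein, at 0.29 ± 0.31 (adjusted p = 0.69 and 0.70). Leaving out 1 couple put Postn at 0.19 to 0.47. Before adjustment, 3 genes below 0 and 1 above had a limma p under 0.05, beside 7.01% of all tested genes in either direction. Fibroblast markers, 4 of which are in this list too, had 7 of 9 below 0 and summed signals of 15331 to 25376 in the tamoxifen and 17814 to 27158 in the oil samples, which overlap.

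The last list holds inputs and co-repressors of the EMT factors, whichever way they act on them. Of 22 tested, 14 were above 0, beside 9983 of all 20475 tested genes, and the median was 0.05. Ctbp2, a co-repressor bound by Zeb proteins, was at -0.23 ± 0.11 and the receptor gene Notch1 at -0.27 ± 0.28, while the deacetylase gene Hdac1 was at 0.17 ± 0.13 and the ligand gene Tgfb3 at 0.16 ± 0.11 (SD, n = 3 couples). Ctbp2 was the 1 gene of this list with an unadjusted p under 0.05, beside 7.01% of all tested genes. Its adjusted p was 0.69 in limma. Leaving out 1 couple put Notch1 at -0.42 to -0.15 and Hdac1 at 0.11 to 0.23. From the arrays with tamoxifen in Cy3 alone the list median was -0.06.

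**Figure D5:**
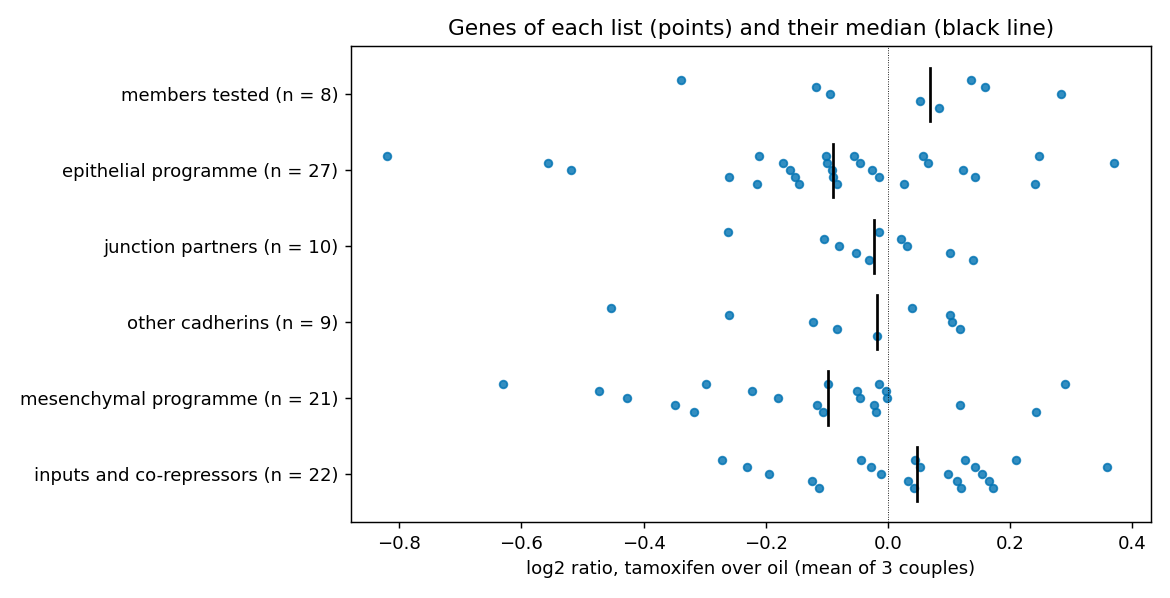
Mean log2 ratio of tamoxifen over oil (x axis) of the tested genes of each list, a point per gene and the list median as a black line. Medians lie between -0.10 (mesenchymal programme) and 0.07 (the 8 members), and each list has genes on both sides of 0.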

How the data were processed

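Tumor RNA of 3 samples labelled tamoxifen and 3 labelled oil was read on 6 dye-swapped Agilent arrays. The deposited files give the intensity of each spot per channel without normalization, per the file headers, and the submitters' processing notes name Agilent Feature Extraction 12.0.3.1. They also hold the software's dye-normalized log10 ratio of Cy5 over Cy3 and flags of 0 or 1 (other columns), per the file headers. The deposited series table holds log2 ratios of Cy5 over Cy3. Against the log10 ratios of the same arrays its slope was 3.32 to 3.33, so it runs the same way on a log2 scale, with column medians of -0.15 to 0.14 and any centring unknown. Probe positions are on mm9, without exon annotation here.

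Intensities were corrected in limma 3.58.1 (R 4.3.3) with normexp (offset 50), which pulls ratios of dim probes toward 0, and normalized by loess within arrays. The 3671 control spots and 89 to 132 outlier spots per array were left out, and 0 spots were saturated. Per array and channel, 51.8% to 58.8% of probes stood well above background. The brightest probe stood for a gene, tested if, in the channel of either group, the scanner flagged it well above background on both arrays of a couple in 2 or more couples. Dye swaps were averaged per couple. The 3 couple ratios were tested against 0, two-sided (lmFit, eBayes), with Benjamini-Hochberg adjustment over all 20475 genes at 0.05. The fits were tested on simulated data. Per-sample signals are per-channel values after loess and Aquantile. Precision is limited by how few arrays there are, and the median SE over genes was 0.098. Across genes, r was 0.76 to 0.79 between both orientations of a couple and -0.02 to 0.17 between couples, where genes are not independent replicates. The numbers pair the samples by hybridisation.

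Members and lists were chosen with earlier results of these data known. Of each list the text names the 2 genes with the smallest unadjusted p above and below 0, and it says so where another was added.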

Additional observations from a re-analysis of the deposited data

How the results depend on the processing

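No tested member passed an adjusted p under 0.05 in any of the 17 alternatives. Block fits, the channel fit, eBayes with trend and robust, and both filter settings leave a gene's ratio as it was. Only the other alternatives could change its sign, and of these the deposited table repeated the scanner software's ratios. The signs of members and of the genes named by rule from the lists held except as follows. Cdh6 could not be run with the stricter filter, and Krt18, Cdh16, the sex-linked genes and the alveolar type 2 markers were not recomputed. From the arrays with tamoxifen in Cy3 alone, Zeb2 was at 0.0394, Vim at 0.043, Cdh4 at 0.0156 and Ctnnb1 at -0.1094, and the median of the inputs and co-repressors was -0.0583. Leaving out 1 couple put Snai2 at -0.0339 to 0.124, Vim at -0.2432 to 0.0817, Cdh5 at -0.0088 to 0.2374, Cdh4 at -0.1419 to 0.0111 and Nectin3 at -0.1433 to 0.3005. It also turned the medians of the epithelial (0.0158 without couple 2), mesenchymal (0.0421 without couple 1), cadherin (up to 0.0262) and junction lists (0.0109), the last also with median centring (0.0197). The ratios of Cdh1 ran from -0.51 to -0.16 and of Epcam from 0.19 to 0.39 over all alternatives. Limma's unadjusted p ran from 0.0051 to 0.21 for Cdh1 and from 0.015 to 0.20 for Epcam. With eBayes run with trend and robust it was 0.071 and 0.096, and 79 of all tested genes were under 0.05. The number of genes called, 0, became 56 with the couple as a replicate block over the 6 arrays, 9 with a dye term added to that block (chosen after seeing the data) and 1 with the channels as 3 against 3 samples. No member was among them. The F-test between couples was lost for Snai1 with median centring (range 0.22, adjusted p = 0.085) and the scanner software's ratio (0.29, 0.12) and for Snai2 with median centring (0.26, 0.069). Causes were not tested. Signal over background limits Twist1 and Twist2, and 3 couples limit all intervals.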
